A study of Mus musculus with 8 samples.

Results

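Very long chromatin loops were examined in a mouse blood progenitor line. A loop was counted here when the deposited list for its group gave 500 kb or more between its 2 bins of 5 kb, whatever its strength and whether 1 bin or both held an H3K27ac peak. This rule selected 223 of 80489 loops in untreated p30 cells, 224 of 94609 in LPS-treated p30 cells, 481 of 158233 in untreated p42 cells and 175 of 78591 in LPS-treated p42 cells. Together these were 734 different bin pairs among 214313 in the 4 lists, and they joined 940 bins. The longest spanned 1885 kb.

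The study used H3K27ac HiChIP to map active regulatory contacts in HPC-7 cells carrying p30, the truncated isoform of the transcription factor CEBPA, or p42, its full-length isoform. HPC-7 is a mouse haematopoietic stem and progenitor line that grows with stem cell factor and has very low CEBPA of its own. The 4 groups were p30 UT and p42 UT (untreated) and p30 LPS and p42 LPS (100 ng/mL lipopolysaccharide, the TLR4 ligand from E. coli, for 2 h), each with 2 replicate libraries, 8 libraries in all. Each group had 1 list, with the replicates pooled, so no value below has a spread between replicates, and each difference compares these pooled libraries rather than the conditions. The transgenes were introduced by stable transduction, and the labels of these libraries do not say whether the isoform was expressed constitutively or as a tamoxifen-dependent fusion. No empty-vector group was analysed here. Where 4 values are given together without names, they stand for untreated p30, p30 with LPS, untreated p42 and p42 with LPS, in that order.

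In HiChIP, DNA ends held near each other by chromatin folding are ligated, and the ligated fragments carrying a chosen mark are pulled down, so that a pair of bins joined more often than their distance predicts is called a loop. H3K27ac marks active promoters and enhancers. Over long distances, contacts are commonly anchored by CTCF, a DNA-binding protein that stops the loop-extruding cohesin ring, and such anchors tend to carry CTCF motifs that point towards each other. Enhancers can also meet promoters far away, and active or silent regions can gather without a motif at either end.

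The following DNA lies at ends of very long loops and shows the CTCF core motif, in capitals, within 52 bases of mm39 sequence read 5′ to 3′ in the direction of the motif. The first set shows convergent pairs, in which the left motif was on the plus strand and the right motif on the minus strand. These pairs were each in 3 of the 4 lists and were chosen after their values were seen. The second set shows the motif in the bin of the Myc start, at the left end of loops of over 1 Mb, and in the right-hand bins of a block of loops on chromosome 15 that dominates the recurrent bins, where neighbouring bins carried the motif in opposite directions.
Near P4ha1, left end (chr10:59131518-59131569, plus strand): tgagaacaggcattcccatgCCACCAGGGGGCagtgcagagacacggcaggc
Near Dnajb12, right end (chr10:59701065-59701116, minus strand): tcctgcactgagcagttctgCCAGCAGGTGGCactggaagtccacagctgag
In Adk, left end (chr14:21170709-21170760, plus strand): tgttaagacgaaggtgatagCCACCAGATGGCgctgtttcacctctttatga
At Dusp13b, right end (chr14:21792059-21792110, minus strand): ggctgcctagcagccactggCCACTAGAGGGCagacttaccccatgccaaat
In Bcl6, left end (chr16:23803093-23803144, plus strand): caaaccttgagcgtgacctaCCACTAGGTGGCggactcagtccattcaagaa
Beyond Lpp, right end (chr16:24883480-24883531, minus strand): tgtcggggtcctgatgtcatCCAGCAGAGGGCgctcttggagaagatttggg
Near Saraf, left end (chr8:34647207-34647258, plus strand): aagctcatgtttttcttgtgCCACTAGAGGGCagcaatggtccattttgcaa
In Dusp4, right end (chr8:35283477-35283528, minus strand): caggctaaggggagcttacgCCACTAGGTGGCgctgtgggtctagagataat
Myc start bin (chr15:61855260-61855311, plus strand): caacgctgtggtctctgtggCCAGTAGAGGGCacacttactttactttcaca
Chromosome 15 block, right bin at 101885001 (chr15:101885584-101885635, plus strand): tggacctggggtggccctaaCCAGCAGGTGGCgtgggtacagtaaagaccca
Chromosome 15 block, right bin at 101890001 (chr15:101892928-101892979, minus strand): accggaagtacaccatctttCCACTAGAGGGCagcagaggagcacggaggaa

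The background of contacts behind each list, as the deposited expected counts and probabilities imply it, was 14503330 to 18999991 contacts, and the listed loops held 2148434 to 4788148 of them. Thus p42 UT had both the most modelled contacts and by far the longest list. All 8 HPC-7 marker genes checked, among them Kit and Runx1, had a peak bin at the start site in each list, and none of the 8 markers of other cell types did.

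Very long loops were a small share of each list. They made up 0.277% (95% Wilson interval 0.243 to 0.316) of loops in p30 UT and 0.237% (0.208 to 0.270) in p30 LPS. The shares were 0.304% (0.278 to 0.332) in p42 UT and 0.223% (0.192 to 0.258) in p42 LPS. The lists of untreated cells therefore had the higher shares in both isoforms, with intervals that overlapped in p30 and did not in p42; the intervals cover counting error only and treat loops in neighbouring bins as independent, which they are not. In numbers, p42 UT had 2.16 times as many very long loops as p30 UT, whereas p42 LPS had 0.781 times as many as p30 LPS. When each list was reduced to its 78591 loops of lowest q-value, the order changed to 218, 170, 148 and 175 very long loops and p42 UT was no longer the highest. Loops of 1 Mb or more numbered 14, 17, 42 and 17.

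Most very long loops were listed once. Of the 734 bin pairs, 518 (70.6%) were in 1 list, 113 in 2, 53 in 3 and 50 (6.81%) in all 4. Loops in all 4 lists had more contacts than those in 1: their medians were 13.5, 12, 16 and 11 in the 4 lists, against 8 in each list for the pairs it alone held. Of the pairs in 1 list only, 289 were in p42 UT (60.1% of its very long loops), 89 in p30 UT (39.9%), 83 in p30 LPS (37.1%) and 57 in p42 LPS (32.6%). For 118 of the 289 in p42 UT, another list held a very long loop in the same cluster of adjoining bin pairs, though not always in the next bin. When adjacent bin pairs were merged, the 734 pairs formed 439 clusters, 322 of them a single pair, and 45 clusters had a loop in every list.

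**Figure D1:**
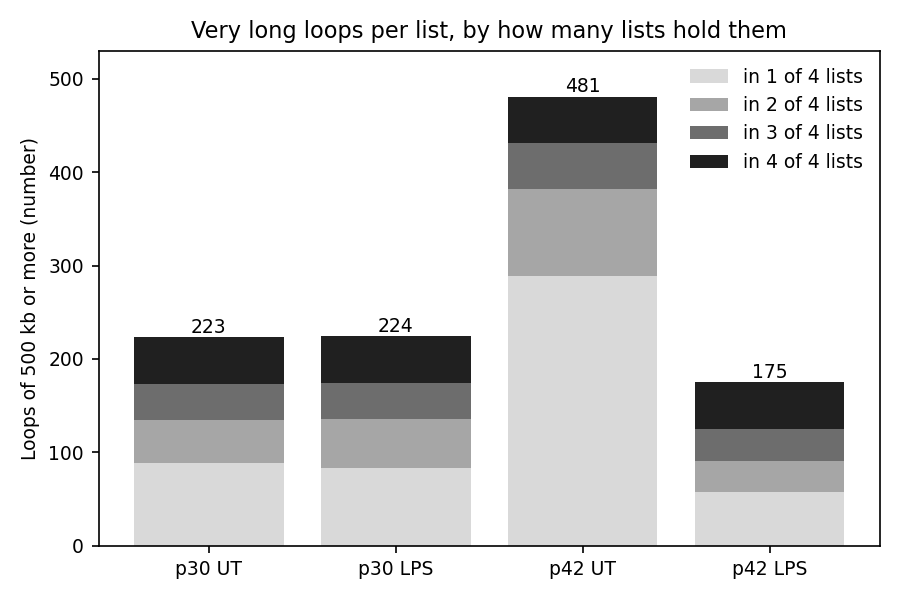
Number of loops of 500 kb or more (vertical axis) in each of the 4 lists (horizontal axis), with the shade of each bar segment giving how many of the 4 lists hold the same bin pair. The p42 UT bar, at 481, owes most of its height to the 289 bin pairs found in no other list, while the darkest segment holds the same 50 loops in every bar.

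Sharing between lists was compared within each treatment and within each isoform. Untreated p30 and p42 cells shared 113 very long loops, 50.7% of those in p30 UT and 23.5% of those in p42 UT. With LPS the isoforms shared 72, 32.1% of the p30 list and 41.1% of the p42 list. In p30 cells, UT and LPS shared 87, 39.0% of the UT and 38.8% of the LPS loops. In p42 cells they shared 108, 22.5% of the UT and 61.7% of the LPS loops. As a share of the union these were 19.1% to 24.2%, against 34.4%, 38.0%, 38.4% and 35.8% for loops under 100 kb and 24.0%, 24.6%, 26.2% and 22.8% for loops of 200 kb to under 500 kb. The share was lower at longer distance over the classes, and the Wilson intervals of very long loops overlapped those of the next class in 3 of the 4 pairings. With 1 bin of slack at each end, the shares of very long loops were 35.1%, 35.7%, 39.5% and 34.0%, and at equal list length that of UT and LPS in p42 was 30.8%. Contact counts moved with this: among very long loops of p42 LPS, 19 of 20 with 15 or more contacts were also in p42 UT, against 39 of 94 with 8 or 9 contacts. Likewise, 29 of 31 very long loops of p30 UT with 15 or more contacts were in p42 UT, and 17 of 17 such loops of p30 LPS were in p30 UT. At like contact counts the order turned for loops with many contacts: of p42 UT loops with 15 or more contacts, 77.6% of very long loops and 43.1% of those under 100 kb were in p30 UT, and with 8 or 9 contacts 12.1% and 13.2% were. Likewise, 95% of very long p42 LPS loops with 15 or more contacts and 83.7% of those under 100 kb were in p42 UT. Like counts were not alike over expectation, however. In p42 UT the median expected count was 6.01 for loops under 100 kb and 1.11 for very long loops.

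By construction a listed loop has far more contacts than its distance predicts, and the very long ones were near the lowest count at which a list could hold them. The median contact count was 9, 8, 8 and 9 in the 4 lists, and the minimum was 7 in each. The model expected a median of 1.10, 1.08, 1.11 and 1.09 contacts at such bin pairs. Observed over expected contacts therefore had medians of 8.35, 7.60, 7.35 and 8.16, above the medians of 3.65 to 3.74 for loops under 100 kb, and the lowest listed values were 6.61, 6.40, 6.05 and 6.72. Only pairs past the q-value threshold were listed, so at an expectation near 1 no listed ratio could be low, and the ratio is no measure of stronger looping. Around the distance threshold the values ran on without a step: loops in the last 2 bin steps below it numbered 16, 14, 31 and 9 with median ratios of 7.82, 7.91, 7.03 and 7.65, and those in the first 2 steps from 500 kb on numbered 17, 10, 34 and 14 with 8.86, 7.13, 7.30 and 7.74.

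The peaks and surroundings of loop ends changed step by step with distance. Both bins held an H3K27ac peak in 55.6%, 58.0%, 64.7% and 57.7% of very long loops in the 4 lists, compared with 88.7% to 91.3% of all loops and 64.9%, 71.0%, 73.0% and 70.4% of loops of 200 kb to under 500 kb. A second loop of the same list lay within 2 bins at both ends for 51.1%, 47.8%, 64.7% and 54.3% of them, compared with 88.0% to 94.0% of loops under 100 kb and 74.3% to 78.1% of those of 200 kb to under 500 kb. Very long loops thus lay at the lower end of a gradual decline in both measures. The median distance was 605 to 615 kb in the 4 lists.

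**Figure D2:**
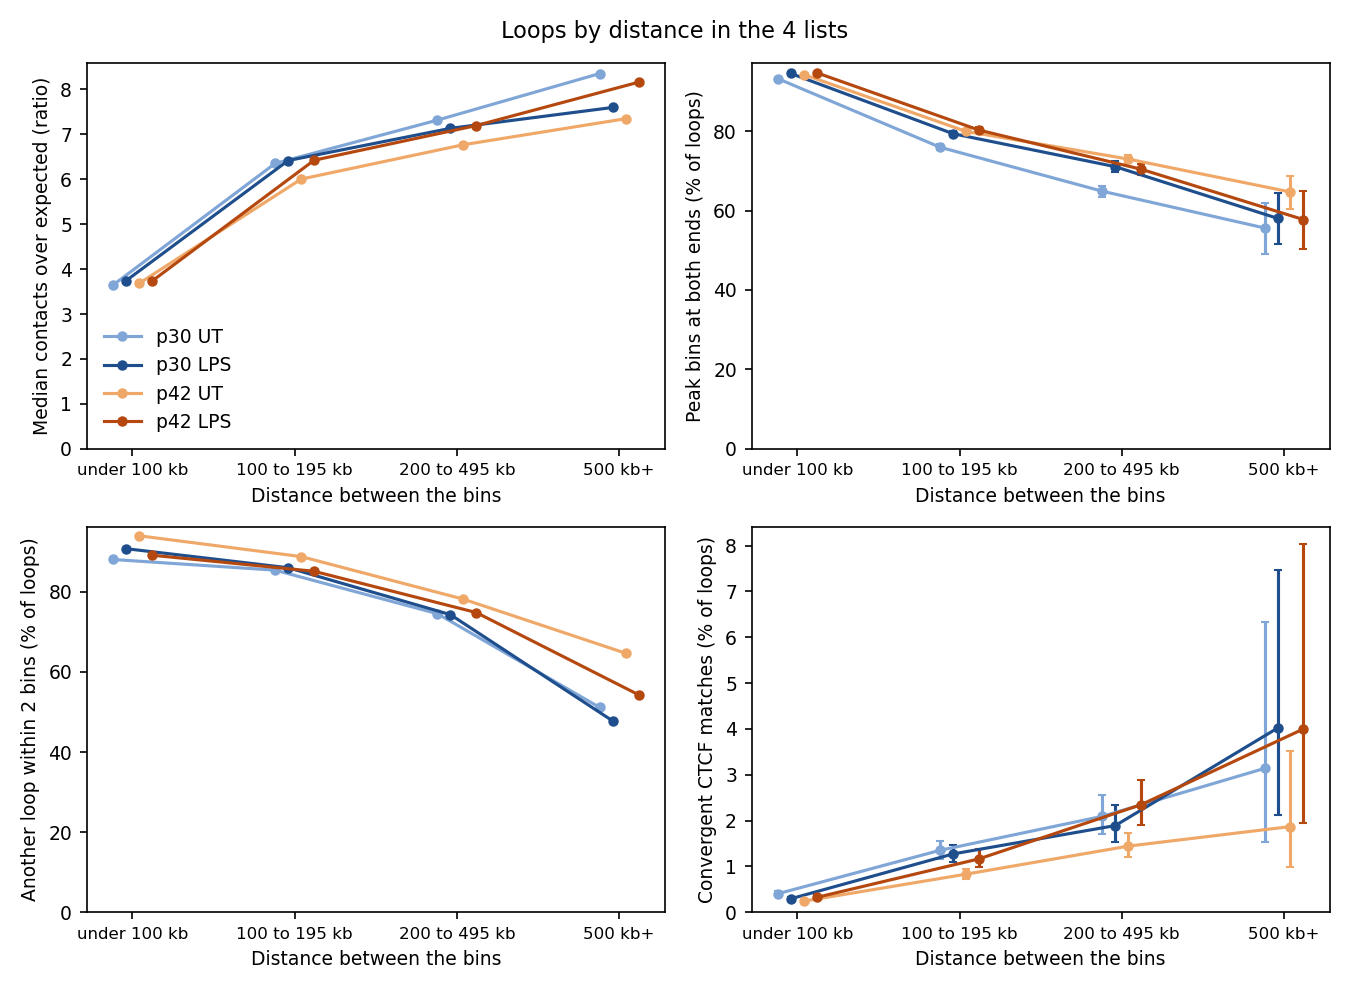
Loops of each list grouped by the distance between their bins (horizontal axis of all 4 panels), showing the median of contacts over expected, the percent with a peak bin at both ends, the percent with another loop within 2 bins and the percent with convergent CTCF motifs. Bars are 95% Wilson intervals where drawn; toward 500 kb and more the ratio and the convergent share go up, while the share with peaks at both ends goes down to 55.6% to 64.7%.

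Contacts of the very long loops present in both lists of a comparison were tested loop by loop with a two-sided exact binomial test against the share of contacts that all shared loops had in these 2 lists, with Benjamini-Hochberg adjustment over all shared loops. For p42 against p30 in untreated cells, 1 of 113 very long loops was called higher and 0 lower, where 1.06% and 0.286% of all 59069 shared loops were called higher and lower. With LPS, 1 of 72 was called higher and 0 lower, where the background was 0.351% and 0.39% of 46110. For LPS against UT, 0 of 87 in p30 (background 0.251% higher and 0.066% lower of 47004) and 0 of 108 in p42 (0.0735% and 0.222% of 59847) were called by the exact binomial test, and 3 and 7 had an unadjusted p under 0.05. With a null share from the expected contacts of each loop, 1 of the 108 was called, the pair described next. The median log2 ratio of contacts was 0.17 for p42 against p30 UT (all shared loops 0.28), 0 with LPS (0), -0.19 for LPS against UT in p30 (-0.09) and -0.17 in p42 (-0.39). All these calls were of the same bin pair, and the other very long loops shared by 2 lists had contact ratios that were not called. At their low counts few could be called. For LPS against UT in p30, a pair with 10 against 26 contacts was not called (exact binomial test, adjusted p = 0.487). Listed loops of all distances had medians of 19 to 20 contacts, against 8 to 9 for very long loops, so the background shares come from higher counts. With replicates pooled, these p-values measure counting error only.

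The called loop was the same in both comparisons and had the most contacts of all very long loops when the lists were summed and in both p42 lists, though not in the p30 lists, where pairs at Exoc4 (UT) and Hspa9 (LPS) had more. It joined an intron of Dapk2, a calmodulin-regulated kinase linked to cell death (chr9:66170001-66175000), to an intron of Vps13c, a lipid transfer protein of membrane contact sites (chr9:67750001-67755000), 1580 kb apart with 14 protein-coding start sites between them. Contacts numbered 19 in untreated p30 cells, 15 in p30 cells with LPS, 107 in untreated p42 cells and 51 in p42 cells with LPS, or 18.6, 14.7, 103 and 49.8 times the expectation. Both p42 lists were thus well above both p30 lists. The log2 ratio of p42 to p30 was 2.49 in untreated cells (exact binomial test, adjusted p = 1.98e-08) and 1.77 with LPS (exact binomial test, adjusted p = 0.00189). Between LPS and UT in p42 cells the log2 ratio was -1.07 (exact binomial test, adjusted p = 0.58), which was called when the null share came from the expected contacts of the loop (exact binomial test, adjusted p = 0.0318). The H3K27ac coverage of the Vps13c bin moved in the same direction, at 2164, 1886, 8579 and 4074, whereas that of the Dapk2 bin was 1730, 1312, 2045 and 1300. The part of this coverage in the contact difference was not tested. The pair made up 1.10%, 1.14%, 5.23% and 3.92% of the smaller of its 2 coverages, and its bins shared 0.182% of their 25-base words. Whether reads were misplaced at this isolated pair, or the 2 places are rearranged in these cells, was not tested. No list had another very long loop within 2 bins at both ends, except p42 UT, where the adjoining bin with the Vps13c start (chr9:67745001-67750000) had 9 contacts with the same Dapk2 bin.

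**Figure D3:**
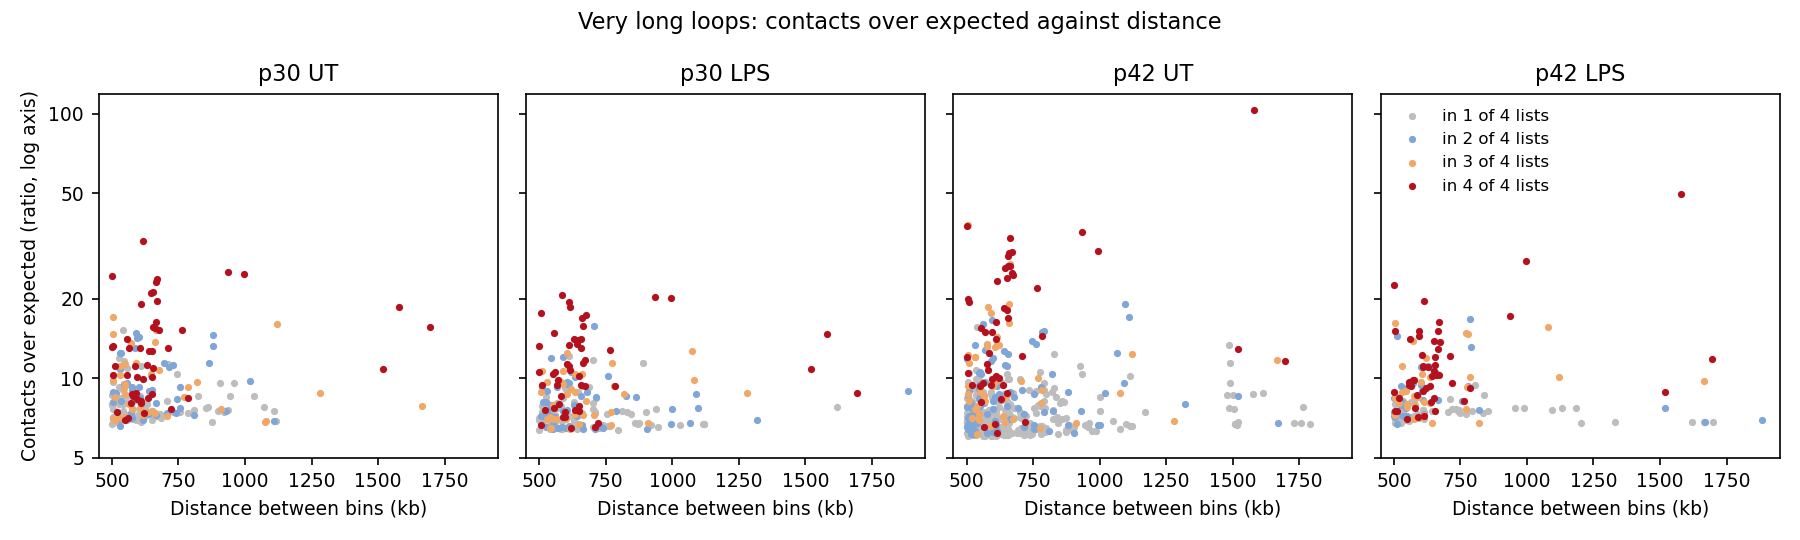
Observed over expected contacts (vertical log axis) against the distance between the bins in kb (horizontal axis) for every loop of 500 kb or more, 1 panel per list, coloured by the number of lists that hold the bin pair. In both p42 panels the highest point, at 1580 kb, is the Dapk2 to Vps13c loop (103 untreated, 49.8 with LPS), while other pairs are higher in the p30 panels, and most pairs found in 1 list lie close to the lower edge of each panel.

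The bin pairs held by all 4 lists numbered 50. Of these, 34 (68%) had a peak at both ends in each list. The p42 UT count was the highest of the 4 for 32 of them, the p30 UT count for 9, the p30 LPS count for 5 and the p42 LPS count for 4. By chromosome, 14 were on chromosome 15, 6 on chromosome 6, 5 on chromosome 5 and 4 on chromosome 13.

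Among the strongest, several stood alone, with few or no loops in the neighbouring bins. An exon bin of Cep350, which encodes a centrosome protein (chr1:155835001-155840000), was joined to a bin 995 kb away near Ralgps2 that holds the lncRNA Gm28694 (chr1:156830001-156835000), with 26, 21, 32 and 29 contacts. No other pair was as far above its expectation in all 4 lists, with a ratio of at least 20.1 in each. An intron of Exoc4, a subunit of the exocyst that tethers secretory vesicles (chr6:33920001-33925000), met a bin 615 kb away near Cald1 (chr6:34535001-34540000) with 36, 20, 25 and 21 contacts, and here p30 UT was highest. Neither pair was called in any comparison by the exact binomial test.

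Other strong pairs joined bins with little coverage or with similar sequence. In the immunoglobulin heavy chain variable region, a bin with Ighv1-50 (chr12:115080001-115085000) met a bin with the pseudogenes Gm5660 and Gm9245 (chr12:115580001-115585000) 500 kb away, with 25, 13, 39 and 23 contacts. The adjoining pair, with its right bin at 115585001, had 17 contacts in p30 UT, 38 in p42 UT and 16 in p42 LPS. On chromosome 17, an exon bin of Tagap1 (chr17:7220001-7225000), met a bin with the lncRNA E430024P14Rik near Rsph3a (chr17:8155001-8160000), with 25, 20, 35 and 17 contacts. The Tagap1 bin had a coverage of only 84, 80, 108 and 70, so that this single partner made up 24.3% to 32.4% of it, and the Ighv1-50 bin likewise had 16.1% to 20.3% of its coverage in the pair. For the typical very long loop of p30 UT that share had a median of 0.721%. The bins of the Tagap1 pair shared 13.8% of their 25-base words and those of the Cep350 pair 2.82%, against 0% for the median very long loop. In total, 23 of the 734 bin pairs (3.13%) shared at least 1% of such words, compared with 1.94% of loops of 200 kb to under 500 kb, and among the 50 pairs in all 4 lists there were 5. The highest share, 27.1%, was at another pair of the same immunoglobulin region, with 10, 7, 15 and 15 contacts. Whether reads were placed on the wrong copy at these pairs was not tested.

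The bins with most very long loops lay in 1 block on chromosome 15, on either side of the type II keratin genes. Its left part (chr15:101180001-101280000) begins at the start of Atg101, an autophagy gene, runs past Smim41 to near Krt80 and holds the start sites of the lncRNAs Gm35853 and Gm52200. Its right part (chr15:101875001-102060000) runs from beyond Krt78, past Krt8 and Eif4b, the translation initiation factor, to the start of Soat2. The block held 55 bin pairs between 12 left and 17 right bins. Its loops numbered 22, 21, 51 and 17, that is 9.87%, 9.38%, 10.6% and 9.71% of the very long loops in these lists. The block thus took close to the same share in all 4 groups, although its summed contacts ran from 196 in p42 LPS to 749 in p42 UT. Of its pairs, 13 were in every list.

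Within the block, the bin chr15:101215001-101220000 had the most very long loops of all 940 bins when the lists were summed, with 4, 7, 15 and 4 in the 4 lists. It led by itself only in p42 UT, since the highest number at any bin was 7, 8, 15 and 5. Its facing bins chr15:101885001-101890000 and chr15:101890001-101895000 had 6, 5, 10 and 5, and 7, 6, 9 and 4. The pair with most contacts joined chr15:101225001-101230000 to chr15:101890001-101895000 over 665 kb, with 25, 12, 37 and 16 contacts, or 23.1, 11.4, 34.0 and 15.1 times the expectation. A further arm reached the start of Eif4b (chr15:101980001-101985000) over 765 kb with 17, 14, 25 and 9 contacts. The coverage of the leading left bin was 12598, 9296, 18333 and 6270, far above the median of 1992 to 4021 for peak bins of very long loops. From within the left part to within the right part lie 27 protein-coding start sites from Krt80 on. Of these, 25 are keratin genes, which form the cytoskeleton of epithelia, and only 5 of the 27 had any loop of any length in any list. No pair in the block had convergent CTCF motifs and 2 had a motif at both ends, and only 1 of its left bins, chr15:101210001-101215000, held a match. The 2 facing bins whose motifs are printed above carried them in opposite directions.

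Outside this block, the recurrent ends lay mostly at gene starts. The start of Hspa9, which encodes the mitochondrial HSP70 chaperone (chr18:35085001-35090000), had 3, 8, 9 and 4 very long loops, to bins from Sil1 to Snhg4 and Matr3. Its strongest partner, 585 kb away near Snhg4 (chr18:35670001-35675000), had 13, 24, 15 and 10 contacts, with p30 LPS highest, and was not called by the exact binomial test. The cluster around it held 18 bin pairs, with 3, 11, 14 and 6 loops. The start of Klhdc10, a substrate receptor of a ubiquitin ligase (chr6:30400001-30405000), had 4, 5, 6 and 5 very long loops towards Klf14, of which the strongest had 16, 17, 18 and 11 contacts over 555 kb. Here p42 LPS was lowest and the other lists lay close together.

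The start of Adamts6, a secreted metalloprotease (chr13:104420001-104425000), had 3, 4, 7 and 3 very long loops, the strongest to an exon of Cwc27, a spliceosome-associated cyclophilin, with 15, 20, 23 and 17 contacts over just above 500 kb. An intron bin of Rad51b, a homologous recombination factor (chr12:79400001-79405000), had 2, 3, 6 and 5, all into the region of Zfp36l1, whose protein drives decay of AU-rich mRNAs. That cluster of 13 bin pairs had 2, 5, 11 and 10 loops, with nearly as many in p42 LPS as in p42 UT. On chromosome 2, in a pair chosen after its values were seen, an exon of Eif2ak4, the amino acid-sensing kinase GCN2 (chr2:118265001-118270000), met the start of Knl1, a kinetochore scaffold (chr2:118875001-118880000), with 21, 21, 18 and 12 contacts over 610 kb.

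**Figure D4:**
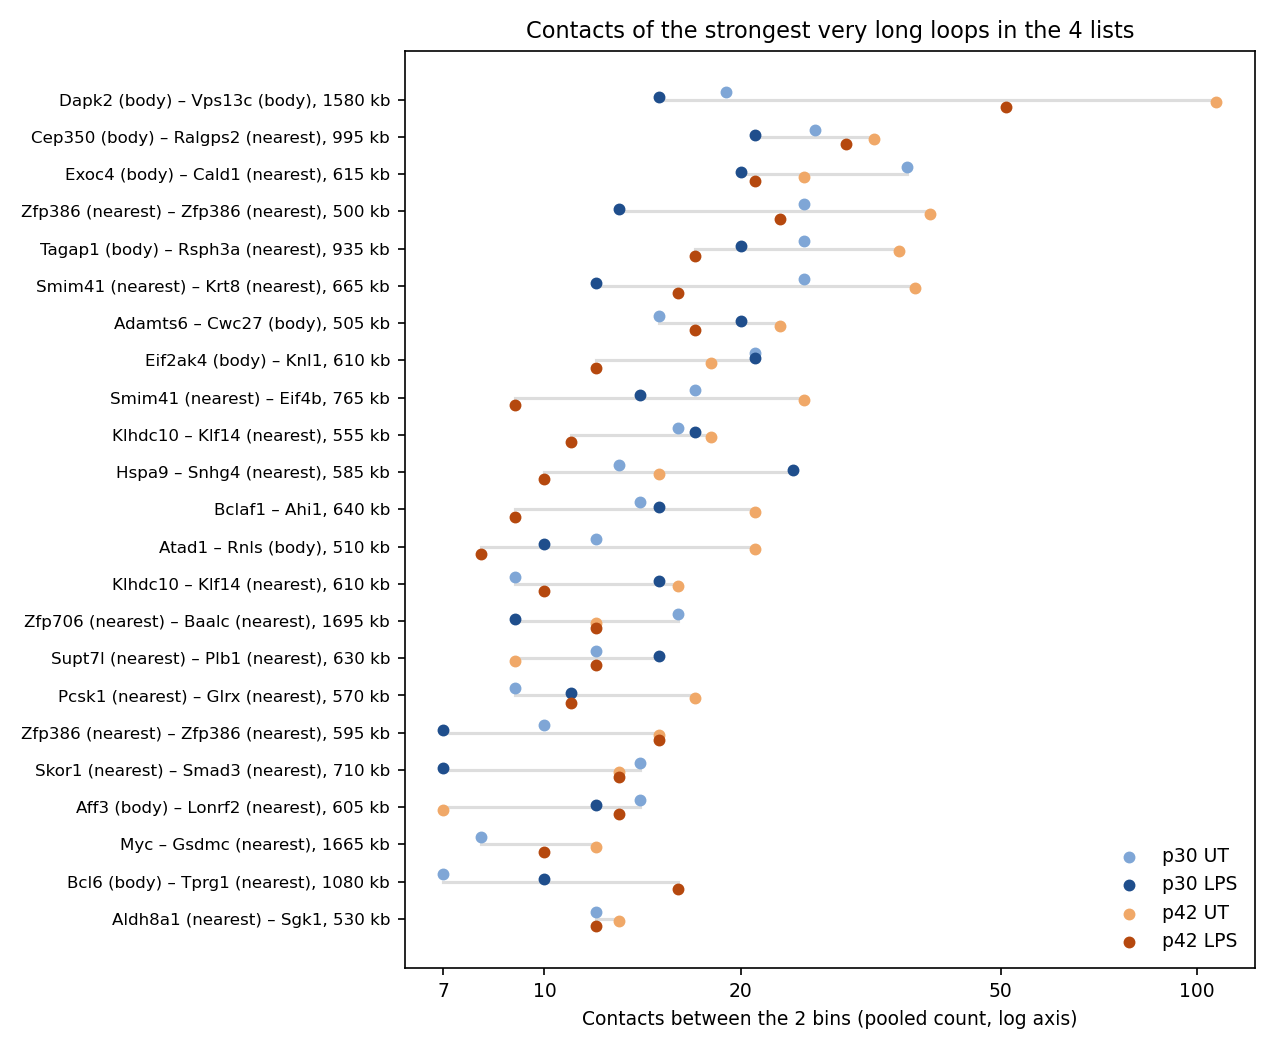
Contacts (horizontal log axis, pooled count) between the 2 bins of the strongest very long loops, 1 line per loop with its ends and distance on the vertical axis and 1 point per list; the last lines are loops of Myc, Bcl6 and Sgk1, which lack a point for a list that does not hold them. The Dapk2 to Vps13c loop is alone in having both p42 points (107 and 51) far to the right of both p30 points (19 and 15).

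Of the pairs in all 4 lists, 3 spanned 1 Mb or more; these and the longest loop were picked out after their values were seen. Besides the Dapk2 to Vps13c pair, an exon of Wdr41 (chr13:95140001-95145000) met an intron of Polk, a translesion DNA polymerase (chr13:96660001-96665000), over 1520 kb with 11, 11, 13 and 9 contacts. A bin beside Zfp706 (chr15:37010001-37015000) met one 30.5 kb from the nearest protein-coding start, that of Baalc, a gene expressed in blood progenitors (chr15:38705001-38710000), over 1695 kb with 16, 9, 12 and 12 contacts. Neither was called by the exact binomial test. The longest loop of the series, over 1885 kb from a bin near Pcsk2 to an intron of Slc24a3 (chr2:143295001-143300000 to chr2:145180001-145185000), was in both LPS lists only, with 9 contacts in p30 and 7 in p42 cells.

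In a few loops both ends were start sites, of which the following were chosen after their values were seen. Bclaf1, a regulator of transcription and splicing (chr10:20185001-20190000), met Ahi1, a protein of the ciliary base (chr10:20825001-20830000), over 640 kb with 14, 15, 21 and 9 contacts; Myb, which neighbours Ahi1, had no very long loop at its own start. Crlf2, a subunit of the TSLP receptor (chr5:109705001-109710000), met the shared start bin of Gtpbp6 and Zfp605 (chr5:110255001-110260000) over 550 kb with 8, 12, 11 and 8 contacts. Over all 734 pairs, 42 (5.72%) joined 2 protein-coding start sites, 209 (28.5%) had 1 and 483 (65.8%) had none, close to the 4.29%, 26.9% and 68.8% of shorter loops. Of the 940 bins, 191 (20.3%) held a start site, 194 lay in an exon, 161 in an intron and 394 (41.9%) between genes. The start-site share was 12.4% for the bins of all loops (9411 of 75822), so counted by bin, unlike by pair, it was higher at very long loops, a difference that was not tested. The loops passed over a median of 3 protein-coding starts and at most 64, and 60 passed over none.

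By gene, 53, 69, 159 and 35 of 21757 annotated protein-coding genes had a very long loop at the start in the 4 lists. At equal list length these were 52, 56, 44 and 35, so that p42 UT was below both p30 lists. The union was 215 genes (0.988%), and 12 had one in every list: Hspa9, Klhdc10, Adamts6, Bclaf1, Ahi1, Atad1, Dusp13b, Crlf2, Eif4b, Gtpbp6, Knl1 and Zfp605. Also chosen after its values were seen, Atad1, which removes misplaced proteins from the mitochondrial outer membrane, met an intron of Rnls over 510 kb with 12, 10, 21 and 8 contacts.

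Gene lists for these cells were counted in the same way, as descriptions without a test. Over all protein-coding genes, 0.988% had a very long loop at the start in some list, and 2.04% of those with any loop. Of 38 haematopoietic transcription factors, 5 (13.2%) had a very long loop at the start in some list: Myc, Mycn, Runx1, Erg and Zeb2. Of these factors 33 had any loop, and the share among them was 15.2%. Of 40 inflammatory response genes 1 (2.5%) did: Tnfaip3, the A20 ubiquitin editor, in p30 LPS only with 8 contacts. Of 15 AP-1 genes 1 (6.67%, Fosl2) did, and of 99 ribosomal protein genes 1 (1.01%, Rpl37a). None of 24 growth factor receptor and signalling genes of progenitors and none of 30 cell cycle and survival genes had one. These single genes and absences are too few to be told apart from the share over all genes. No member of these lists had one in all 4 lists.

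The loops at the starts of the other transcription factors, named after their values were seen, were each in 1 list. Runx1, a regulator of blood stem cell emergence, had 8 contacts in p42 UT between a start bin (chr16:92620001-92625000) and a bin 630 kb away. Erg met the start of Brwd1, a bromodomain protein, over 620 kb with 8 contacts, also in p42 UT. The start of Mycn (chr12:12990001-12995000) had 13 contacts with a bin 525 kb away in p30 UT and 7 with another in p42 UT. Zeb2 reached a bin between genes 1330 kb away with 7 contacts in p42 LPS. Counts of 7 or 8 are at or next to the lowest listed, and the contacts of these pairs in the other lists are not known.

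Myc, the growth-promoting transcription factor, had the longest of these. Its start bin (chr15:61855001-61860000) met chr15:63520001-63525000, inside the lncRNA Gm41335 and 155.6 kb from the nearest protein-coding start, that of Gsdmc, over 1665 kb, with 8 contacts in untreated p30 cells and 12 and 10 in p42 cells without and with LPS. The pair was not in the p30 LPS list. These were 7.88, 11.7 and 9.79 times the expectation. The start bin had 1, 0, 3 and 3 very long loops in the 4 lists. The absence from 1 list is not a count of 0, since pairs below the threshold were not listed. Kit, the receptor for stem cell factor, had no very long loop at its start in any list.

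Several other regulators, chosen after their values were seen, had pairs that were each in 2 or 3 lists. An intron bin of Bcl6, a transcriptional repressor (chr16:23800001-23805000), met chr16:24880001-24885000, beyond the neighbouring gene Lpp, over 1080 kb with 7 contacts in p30 UT, 10 in p30 LPS and 16 in p42 LPS. The adjoining bin with the Bcl6 start met the same bin with 7, 13 and 9 contacts in p30 UT, p30 LPS and p42 UT. Both p30 lists thus held both of these neighbouring pairs, and each p42 list held 1 of them. A second partner of the Bcl6 intron bin, at 1280 kb (chr16:25080001-25085000), had 9, 9 and 7 contacts in p30 UT, p30 LPS and p42 UT. The start of Sgk1, a serum- and glucocorticoid-induced kinase (chr10:21870001-21875000), met a bin 530 kb away with 12, 13 and 12 contacts in p30 UT, p42 UT and p42 LPS. The start of Fosl2, an AP-1 subunit (chr5:32290001-32295000), met a bin near Supt7l over 570 kb with 7 contacts in the p30 LPS list and 14 in that of p42 UT.

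A further cluster, chosen after its values were seen, was largely found in a single list. Between 2 groups of replication-dependent histone genes on chromosome 13 (chr13:22220001-22235000 and chr13:23710001-23745000), 11 adjacent bin pairs over 1480 to 1520 kb were listed in p42 UT with 100 contacts in sum. In p42 LPS 1 of them was listed, with 8 contacts, and in the p30 lists none. Up to 8.74% of the 25-base words were shared between the bins, and the part of this sequence similarity was not tested.

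Bins of very long loops held the CTCF core motif in a larger share than bins of all loops, which are mostly much shorter. The values are given as a description without a test. The motif was searched on both strands without a mismatch, by its 12-letter core, and a match is a description of the sequence, not of binding. It lay in 155 of 940 bins (16.5%), compared with 4376 of 75822 bins of all loops (5.77%) and 12740 of 529775 bins of the genome (2.40%). Loops of 200 kb to under 500 kb lay closer to very long loops. Of 12817 such pairs, 1525 had a forward match at the left end and 1450 a reverse match at the right. For very long loops these were 85 and 121 of 734. A motif at both ends was found in 2.10% of the former, 3.41% of the latter and 0.468% of loops under 100 kb. Bins without an H3K27ac peak held it more often (55 of 220, 25%) than bins with one (100 of 720, 13.9%). The same order was seen in the bins of all loops, at 11.2% and 4.87%. Bins with a protein-coding start held it in 11 of 191 cases (5.76%), and bins without in 144 of 749 (19.2%).

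The direction of the motifs followed the side of the loop. At left ends, 85 loops had a forward match and 15 a reverse match, and at right ends 26 had a forward and 121 a reverse match, so 83.4% of these matches pointed into the loop. For the 3 shorter distance classes the inward share was 67.0% (under 100 kb), 79.8% and 82.8%. Convergent motifs at both ends were found in 19 of the 734 pairs (2.59%), in 19 separate clusters, and divergent motifs in 2 (0.272%). The convergent share was 0.220% for loops under 100 kb and 1.40% for loops of 200 kb to under 500 kb. By list it was 7 of 223 (3.14%), 9 of 224 (4.02%), 9 of 481 (1.87%) and 7 of 175 (4%). With 1 mismatch allowed, the convergent share was 192 of 734 (26.2%), against 12.4% for loops under 100 kb and 23.5% for those of 200 kb to under 500 kb, and by list it was 30.9%, 24.6%, 24.7% and 30.9%, so both its size and the order of the lists depend on the match required. None of the 50 pairs in all 4 lists was convergent without a mismatch, while 7 (14%) were with 1 allowed. The strongest recurrent pairs at Dapk2, Cep350, Exoc4 and the keratin block were not convergent without a mismatch.

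Without a mismatch, no convergent pair was in more than 3 lists, and the 5 in 3 lists include those whose ends are printed above. The loop between P4ha1, a collagen prolyl hydroxylase, and Dnajb12, an endoplasmic reticulum co-chaperone (chr10:59130001-59135000 to chr10:59700001-59705000), had 15 contacts in p30 UT, 9 in p42 UT and 15 in p42 LPS over 570 kb. The loop from an intron of Adk, adenosine kinase, to the start of Dusp13b, a dual-specificity phosphatase (chr14:21170001-21175000 to chr14:21790001-21795000), had 10 contacts in the p30 LPS list and 15 and 13 in the UT and LPS lists of p42 over 620 kb. The loop from a bin near Saraf, a regulator of calcium entry, to an exon of Dusp4, a phosphatase of MAP kinases (chr8:34645001-34650000 to chr8:35280001-35285000), had 8, 8 and 11 in the same 3 lists over 635 kb. Both Bcl6 pairs from the intron bin were convergent as well. All these loops had 7 to 16 contacts in a list, well below the 107 of the strongest.

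Very long loops were spread unevenly over the chromosomes. Chromosome 13 had 79 of the 734 bin pairs (10.8%) but 2.78% of all loops, and chromosome 15 also had 79 (10.8%) with 4.39% of all loops. Conversely, the gene-dense chromosomes 11 and 7 had 17 (2.32%) and 13 (1.77%), with 10.2% and 6.95% of all loops. Chromosome 1 had the most, 85 (11.6%), near its 9.67% of all loops. The block beside the keratin genes made up 55 of the 79 pairs on chromosome 15.

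**Figure D5:**
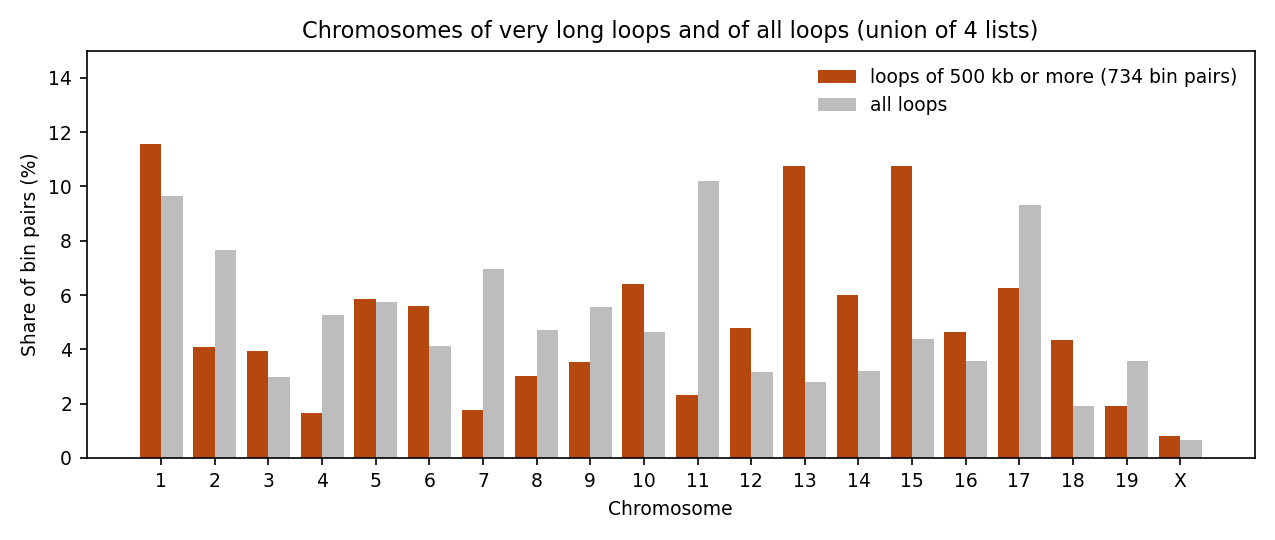
Percent of bin pairs on each chromosome (vertical axis) for the 734 pairs of 500 kb or more and for all 214313 pairs of the 4 lists. Chromosomes 13 and 15 rise above their share of all loops (10.8% each against 2.78% and 4.39%), while chromosomes 7 and 11 fall below theirs.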

How the data were processed

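H3K27ac HiChIP libraries of 4 groups, 2 per group, were analysed from 1 loop list per group. According to the study's methods and the submitters' processing notes, the authors aligned reads to mm39 with BWA 0.7.17, kept deduplicated ligation pairs with pairtools and called loops with FitHiChIP. How replicates were pooled is not given in the sources used here. The deposited lists give raw contact counts between 5 kb bins, the coverage counts and peak state of each bin, the expected contact count, the probability of a contact as a fraction, and a q-value, with listed loops under 0.01. Pairs that were not listed have no value, so absence is not a count of 0.

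Lists were joined on bin pairs in Python 3.11.15 (pandas 2.3.3, numpy 2.4.6, scipy 1.17.1, pysam 0.24.0, matplotlib 3.10.9). Intervals are 95% Wilson intervals, and they and the binomial test cover counting error only. Bins were annotated with GENCODE genes on GRCm39 (mm39) by a canonical start site, then exon, then intron. The CTCF core and 25-base words were searched in the same assembly. Pairs of bins adjacent at both ends, within 1 bin, were merged into clusters. Scripts were tested on simulated data. Genes named are those at the 10 bins with most very long loops, at the 10 shared pairs with most contacts and the 5 with the highest smallest ratio, called loops, and Myc and Kit, and all others, named members of the gene lists included, were chosen after their values were seen. The members and lists were chosen with earlier results of these data known. Alternatives were a q-value under 0.001, lists of equal length, merged clusters, thresholds of 400 kb and 1 Mb, 1 bin of slack, a bin on either side of the start, 1 mismatch in the motif and another null for the test.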

Additional observations from a re-analysis of the deposited data

Results flagged for a closer look

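Several measures moved in opposite directions in 2 settings, and these differences between settings were not tested. The number of very long loops in p42 relative to p30 was 2.16 times in untreated cells and 0.781 times with LPS. As a percent of the list, the ratio of p42 to p30 was 1.1 in untreated cells and 0.94 with LPS. The median of contacts over expected in LPS relative to UT was 0.91 times in p30 and 1.11 times in p42, and in p42 relative to p30 it was 0.88 times untreated and 1.07 times with LPS. With LPS, genes with a very long loop at the start numbered 1.3 times those of UT in p30 but 0.22 times in p42. In p42 relative to p30 they numbered 3 times as many in untreated cells and 0.507 times as many with LPS. In each of these sets, p42 UT has the longest list, with 158233 loops, and the part of list length was not tested beyond the lists of equal length below. With lists of equal length, the ratios of p42 to p30 in number and percent of the list turned, as did each of the ratios of the median: the medians of contacts over expected were then 8.40, 8.49, 11.1 and 8.16 in the order of the lists. The gene counts were then 52, 56, 44 and 35, so that the ratio of p42 to p30 in untreated cells turned as well, while the other gene ratios kept their direction.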

How the results depend on the processing

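No paired analysis was possible because each group's replicates were pooled into 1 list, and for the same reason no replicate could be left out. At equal list length, the ratio of the number of very long loops turned from 2.16 to 0.679 for p42 to p30 in UT, from 0.781 to 1.03 with LPS, and from 0.364 to 1.18 for LPS to UT in p42. For p30 it moved from 1.00 to 0.78. Equal length keeps only the lowest q-values of the longer lists. With q under 0.001 these ratios were 1.64, 0.953, 0.451 and 0.775, in the same order. Merging clusters gave 1.71 (p42 to p30 in UT) and 0.433 (LPS to UT in p42). At 1 Mb or more, p42 to p30 was 3 in UT and 1 with LPS, and LPS to UT in p30 was 1.21. Shares of the union for p30 and p42 in UT were 22.6% with q under 0.001, 24.1% merged, 24.5% at equal length and 35.1% with 1 bin of slack. With LPS they were 27.4% (q under 0.001), 17.2% (1 Mb) and 35.7% (slack). For UT and LPS they were 29.3% (merged) and 39.5% (slack) in p30, and 27.1% (q under 0.001), 30.8% (equal length), 13.5% (1 Mb) and 34.0% (slack) in p42. Median contacts over expected with q under 0.001 were 9.77, 9.62, 9.37 and 9.52 in the order of the lists. At equal length they were 8.40, 8.49, 11.1 and 8.16, so that each of their ratios between lists turned direction, and at 1 Mb or more 8.26 and 7.69 for p42 without and with LPS. With a null from expected contacts, 1 very long loop was called for LPS to UT in p42, the Dapk2 to Vps13c loop (exact binomial test, adjusted p = 0.0318). Genes with a very long loop at the start, 53, 69, 159 and 35, numbered 52, 56, 44 and 35 at equal length, where p42 UT no longer had the most, and 111, 109, 242 and 70 with a bin on either side. Where a value moved for another reason, the cause was not tested. Of 104 recomputed values, 60 stayed within their interval or factor, 41 moved and 3, the ratios of number above, turned direction; ratios of the medians are not counted there. Contact counts of 7 to 10 limit most comparisons.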

Other observations

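Several clusters of adjacent very long loops outside the named genes are given here as values; they were chosen after their values were seen. On chromosome 13, bins near Ly86, which encodes the lymphocyte antigen MD-1, met bins near Ssr1 and Rreb1 in 1 cluster of 6 bin pairs. It had 2, 3, 5 and 1 loops in the 4 lists, and the strongest pair (chr13:37635001-37640000 to chr13:38145001-38150000) had 8, 12 and 13 contacts in the lists other than p42 LPS. Another Ly86 to Ssr1 pair, with its left bin at 37620001, had 8 contacts in both p30 lists, and the region was not counted as a whole. A region between Mgst2 and Foxo1, a forkhead transcription factor, on chromosome 3 held 2 clusters, 1 of 5 pairs with 0, 3, 4 and 0 loops and 1 of 4 pairs with 2, 2, 1 and 2. In the second, a pair (chr3:51560001-51565000 to chr3:52150001-52155000) was in all 4 lists with 10, 8, 11 and 8 contacts. In the other, the strongest pair (chr3:51555001-51560000 to chr3:52100001-52105000) had 13 contacts in p30 LPS cells and 10 in untreated p42 cells. Between Osbpl11 and Heg1 on chromosome 16, 6 pairs gave 3, 4, 5 and 2 loops, and the strongest had 12, 9, 10 and 11 contacts over 555 kb.

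The region of Gnas, the stimulatory G protein alpha subunit, met bins near Edn3 in 6 pairs, with 5, 1, 2 and 1 loops, so that here untreated p30 cells had the most. An exon of Tsc22d1, a transcriptional regulator, met a bin near Ccdc122 on chromosome 14 in a cluster of 7 pairs with 3, 2, 5 and 1 loops, the strongest with 16 contacts in untreated p30, 10 in untreated p42 and 9 in LPS-treated p42 cells. Differences between lists in these clusters were not tested as clusters.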
